A study of Rattus norvegicus with 3 samples.

Results

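Double-positive thymocytes are the developing T cells that carry both coreceptors, CD4 and CD8, at their surface. In the single-cell library of rat thymocytes examined here they were the cells that the authors' deposited annotation labels DP, taken from the label the authors projected onto each cell, or from the cluster where no label was projected. There were 5202 of them among 8546 annotated cells, a share of 60.9% with an exact binomial (Clopper-Pearson) 95% interval of 59.8 to 61.9%. Such intervals, and the exact Poisson 95% intervals given with levels, cover counting error only. The thymi came from 8-week-old Lewis rats, were digested with collagenase D and DNase I, and gave 1 droplet library of thymocytes, with no sort for a surface marker stated and the number of animals not given in the sources used here. The study also made a library of CD45-negative stromal cells and 1 spatial section. The DP cells are compared below with the cells labelled DP-P, of which there were 848, and with those labelled Pre DP-sig, of which there were 325. Label and cluster did not always agree in these cells. The authors' clusters put 199 of the DP-P cells (23.5%) in the cluster DN. Of the Pre DP-sig cells, 146 (44.9%) were in the cluster Early SP, 145 (44.6%) in DP1 and 33 (10.2%) in DP2. All 3 labels come from the same library, so every animal and every step of preparation is shared.

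A thymocyte reaches the double-positive stage after it has rearranged its T cell receptor beta gene and divided several times. It then stops dividing, turns the recombinase genes Rag1 and Rag2 on again to rearrange the alpha gene, and is tested on peptide and MHC by the epithelium of the cortex. Most double-positive cells die without a signal, and those that receive one lower the recombinase and induce genes such as Tox, Cd69 and Cd5.

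With 1 library, and with labels made from the same genes that are compared, no test was possible. A gene is therefore described by its level and by whether its ratio between labels was at least 2-fold, and a fold in these cells is a description of this library. Levels are given on 2 scales. The first is the number of UMIs (unique molecular identifiers, the count of captured RNA molecules) of a gene per 1000000 UMIs of the label, called CPM, which measures a share of the RNA. The second is the number of UMIs per cell.

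Cells labelled DP held little RNA. Their median was 3205.5 UMIs and 1601 genes per cell, against 15439 UMIs and 4026.5 genes in DP-P cells and 3484 UMIs and 1683 genes in Pre DP-sig cells. From the lower to the upper quartile, the DP cells lay between 2583 and 4149.75 UMIs, while the DP-P cells lay between 11340 and 24477 UMIs. A DP-P cell had on average 5.55 times the UMIs of a DP cell, and the DP cells, although 60.9% of the annotated cells, gave 29.4% of their UMIs. The make-up of the RNA differed too. Ribosomal protein genes, 99 in number, took 16.1% of the UMIs of DP cells, 23.2% of those of DP-P cells and 16.4% of those of Pre DP-sig cells. The 15 mitochondrial genes took 8.42%, 4.34% and 8.39% of the UMIs in the same order. DP cells and Pre DP-sig cells were thus close to each other in RNA content and DP-P cells stood apart from both.

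**Figure D1:**
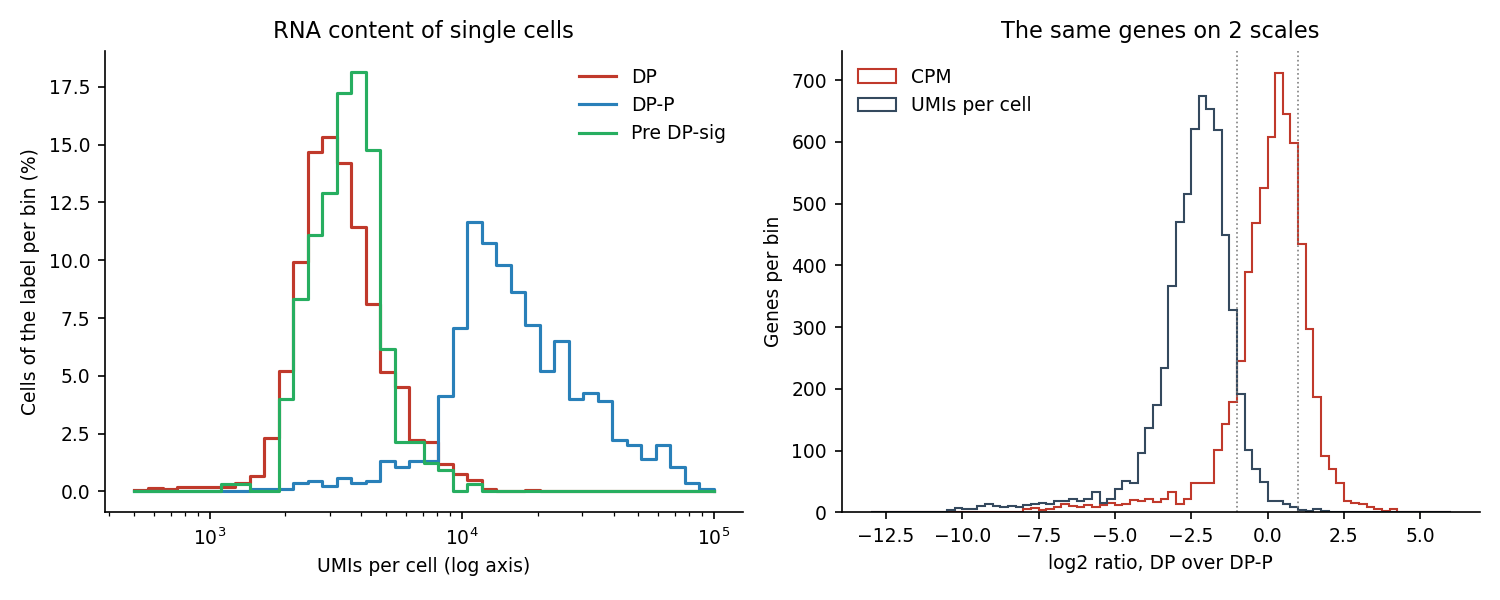
Left, the distribution of UMIs per cell on a log axis, as the percent of the cells of each label in each bin. Right, the log2 ratio of DP over DP-P for the 6266 genes tested, as CPM and as UMIs per cell, with dotted lines at 2-fold. DP and Pre DP-sig cells overlap, with medians of 3205.5 and 3484 UMIs, DP-P cells lie to their right with a median of 15439, and the per-cell ratios lie mostly under the 2-fold line.

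The 4 markers of the stage were all present in these cells. Rag1, one of the pair of subunits of the V(D)J recombinase, was at 1952 CPM (1932 to 1972) in DP cells, 367 CPM (358 to 376) in DP-P cells and 154 CPM (133 to 178) in Pre DP-sig cells. Cd4, the coreceptor for MHC class II, was at 1350 CPM (1334 to 1367), 274 CPM (266 to 282) and 393 CPM (359 to 430) in the same order. Cd8a, a chain of the coreceptor for MHC class I, was at 1497 CPM (1480 to 1515), 892 CPM (878 to 906) and 1025 CPM (968 to 1084). Dntt, the polymerase that adds bases at receptor junctions, was at 865 CPM (851 to 878), 336 CPM (328 to 345) and 361 CPM (328 to 396). For each of the 4 genes, the DP interval in CPM lay above the CPM intervals of both other labels. Since the label was given from such genes, this describes the label and supports nothing further. Per cell, all 4 were lower in DP cells than in DP-P cells. A DP cell held 7.10 UMIs of Rag1, 4.91 of Cd4, 5.44 of Cd8a and 3.14 of Dntt. A DP-P cell held 7.40, 5.52, 18.0 and 6.78 UMIs, and a Pre DP-sig cell 0.569, 1.45, 3.78 and 1.33 UMIs.

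A UMI of both Cd4 and Cd8a was found in 93.0% of the DP cells (92.3 to 93.7%), in 86.8% of the DP-P cells and in 57.5% of the Pre DP-sig cells. All 4 markers together were found in 82.3% of the DP cells, 78.7% of the DP-P cells and 13.8% of the Pre DP-sig cells. In the cells labelled B+myeloid, which should lack most of these genes and had a median of 11506.5 UMIs, 7.06% held all 4 and 23.5% held Cd4 and Cd8a, the first of which some myeloid cells also express in rats. A Rag1 UMI was found in 95.9% of the DP cells and 11.8% of the B+myeloid cells. After each cell was thinned to 1000 UMIs, which left out 38 DP cells and 8 B+myeloid cells, Rag1 was found in 80.0% of the DP cells, 32.2% of the DP-P cells, 12.3% of the Pre DP-sig cells and 3.70% of the B+myeloid cells. The order of the labels was the same for Rag1 with and without thinning, but not for the other 3 markers. Before thinning, Cd8a was found in 96.0% of the DP cells and 98.7% of the DP-P cells, and Dntt in 90.0% and 96.0%. After thinning the shares were 75.6% and 63.3% for Cd8a, and 55.8% and 27.9% for Dntt. Cd4 went from 87.4% of the DP-P and 62.2% of the Pre DP-sig cells to 28.1% and 28.6%.

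**Figure D2:**
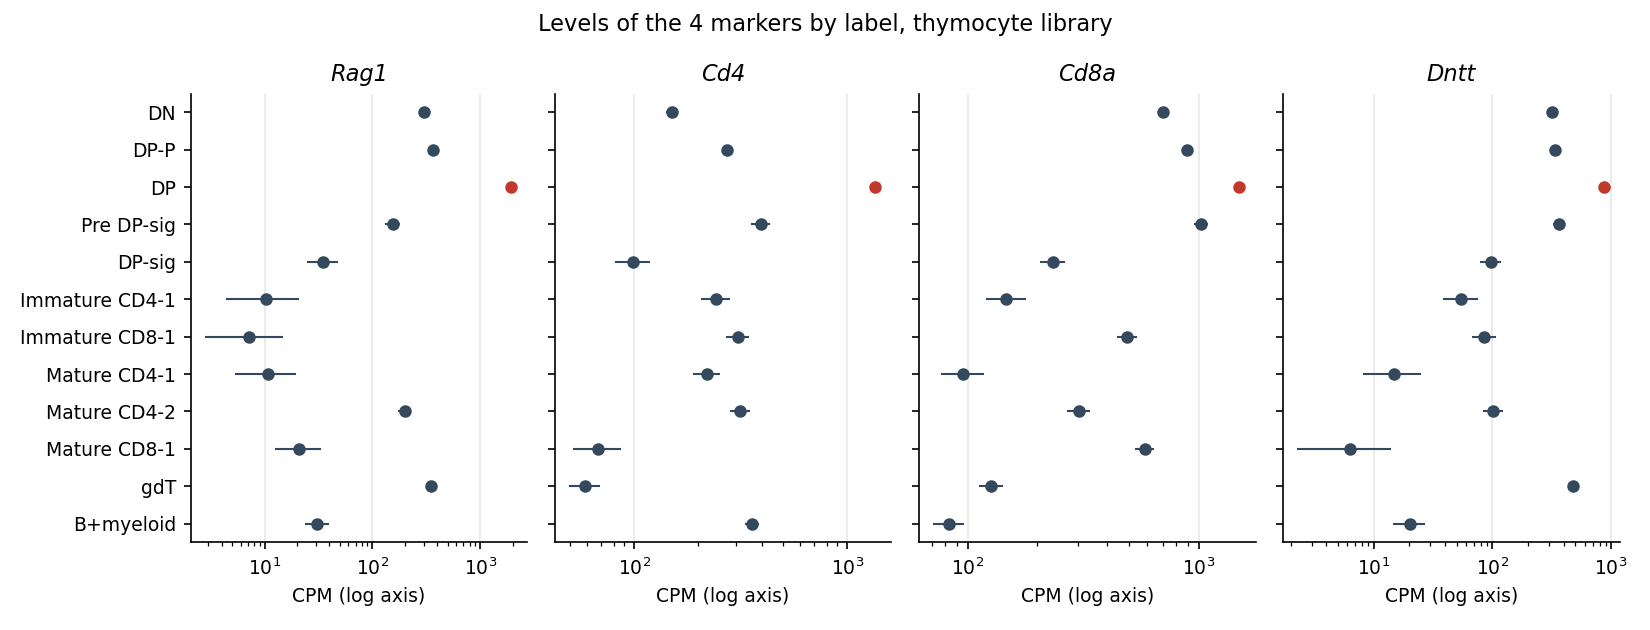
Level of the 4 markers in CPM, on log axes, in DP cells (red) and 11 other labels of the thymocyte library. Points are summed UMIs of the label and lines are exact Poisson 95% intervals, which are hidden by the point where narrow. In each panel the DP cells hold the highest point, at 1952, 1350, 1497 and 865 CPM.

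Markers of other cell types were sparse in the DP cells. Of the 8 myeloid genes none was at 0, with 1596 UMIs in all, of which 1493 were Cst3. Of the 6 B cell genes, Ms4a1 was at 0 and 123 of 136 UMIs were Blnk. Of the 6 epithelial genes, Psmb11 and Foxn1 were at 0 and 169 of 180 UMIs were Krt18. The 5 red cell genes had 20 UMIs, with Hbb, Hba-a1 and Hba-a3 at 0, and the 7 genes of innate-like lymphocytes had 56, with Gzma, Gzmb and Klrb1 at 0. The 6 mesenchymal genes had 5 UMIs in all, with Col1a1, Col1a2 and Pdgfrb at 0, and the 4 endothelial genes had 374, of which 361 were Pecam1. Summed levels of these lists ran from 0.264 to 84.4 CPM in DP cells, and the myeloid list was at 114 CPM in DP-P cells and 72.5 CPM in Pre DP-sig cells. Of the barcodes of the thymocyte library, 38 also occurred in the stromal library, and 23 of these were labelled DP. Among all annotated cells of the thymocyte library the share labelled DP was 60.9%. Other labels were not counted among the shared barcodes, and how the sharing arose was not tested.

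Counted as CPM, Rag1 was among the genes in which DP cells led other labels by the widest margin, with the transporter gene Slc7a11 and the transcription factor gene Sox6. That lead is one of RNA share. Per cell, Rag1 was at 7.10 UMIs in DP cells, below 8.29 in DN, 7.40 in DP-P and 7.39 in gdT cells. Among 17 labels of at least 50 cells, 4631 genes reached 100 UMIs in the DP cells and were found in no fewer than 10% of them. Of these, 1015 had their highest CPM in DP cells and 79 were at least 2-fold over the next label. Genes entered by their level in DP cells only, which favours DP cells, so these counts are a description of the genes admitted. The 10 with the widest margin were Tecta at 8.29-fold, Syt6 at 8.00-fold, Sox6 at 7.02-fold, Rag1 at 5.32-fold, Acvr1c at 5.13-fold, Slc7a11 at 4.92-fold, Colq at 4.13-fold, Dynlt5 at 3.85-fold, Mei1 at 3.69-fold and Cntn1 at 3.51-fold.

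Slc7a11 encodes the cystine and glutamate exchanger xCT, which supplies cystine for glutathione. It was at 1949 CPM in DP cells, 397 CPM in Pre DP-sig cells, the next label, and it was found in 96.6% of the DP cells. Syt6 encodes a synaptotagmin, a membrane protein of vesicle traffic. Its level was 544 CPM in DP cells and 67.9 CPM in DP-P cells, with a UMI in 69.8% of the DP cells. Tecta encodes a protein of the tectorial membrane of the inner ear. It was at 112 CPM in DP cells and 13.6 CPM in the cells labelled Mature CD4-2, the next label, with a UMI in 24.5% of the DP cells. Sox6, a transcription factor of the SoxD group, was at 95.2 CPM in DP cells and 13.6 CPM in the cells labelled AgoSel1, and 23.9% of the DP cells had a UMI of it. Acvr1c, a receptor for ligands of the TGF-beta family, stood at 120 CPM, and Cntn1, an adhesion molecule of neurons, at 42.6 CPM in DP cells. For 5 of the 10 genes the next label was Pre DP-sig and for 2 it was DP-P.

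**Figure D3:**
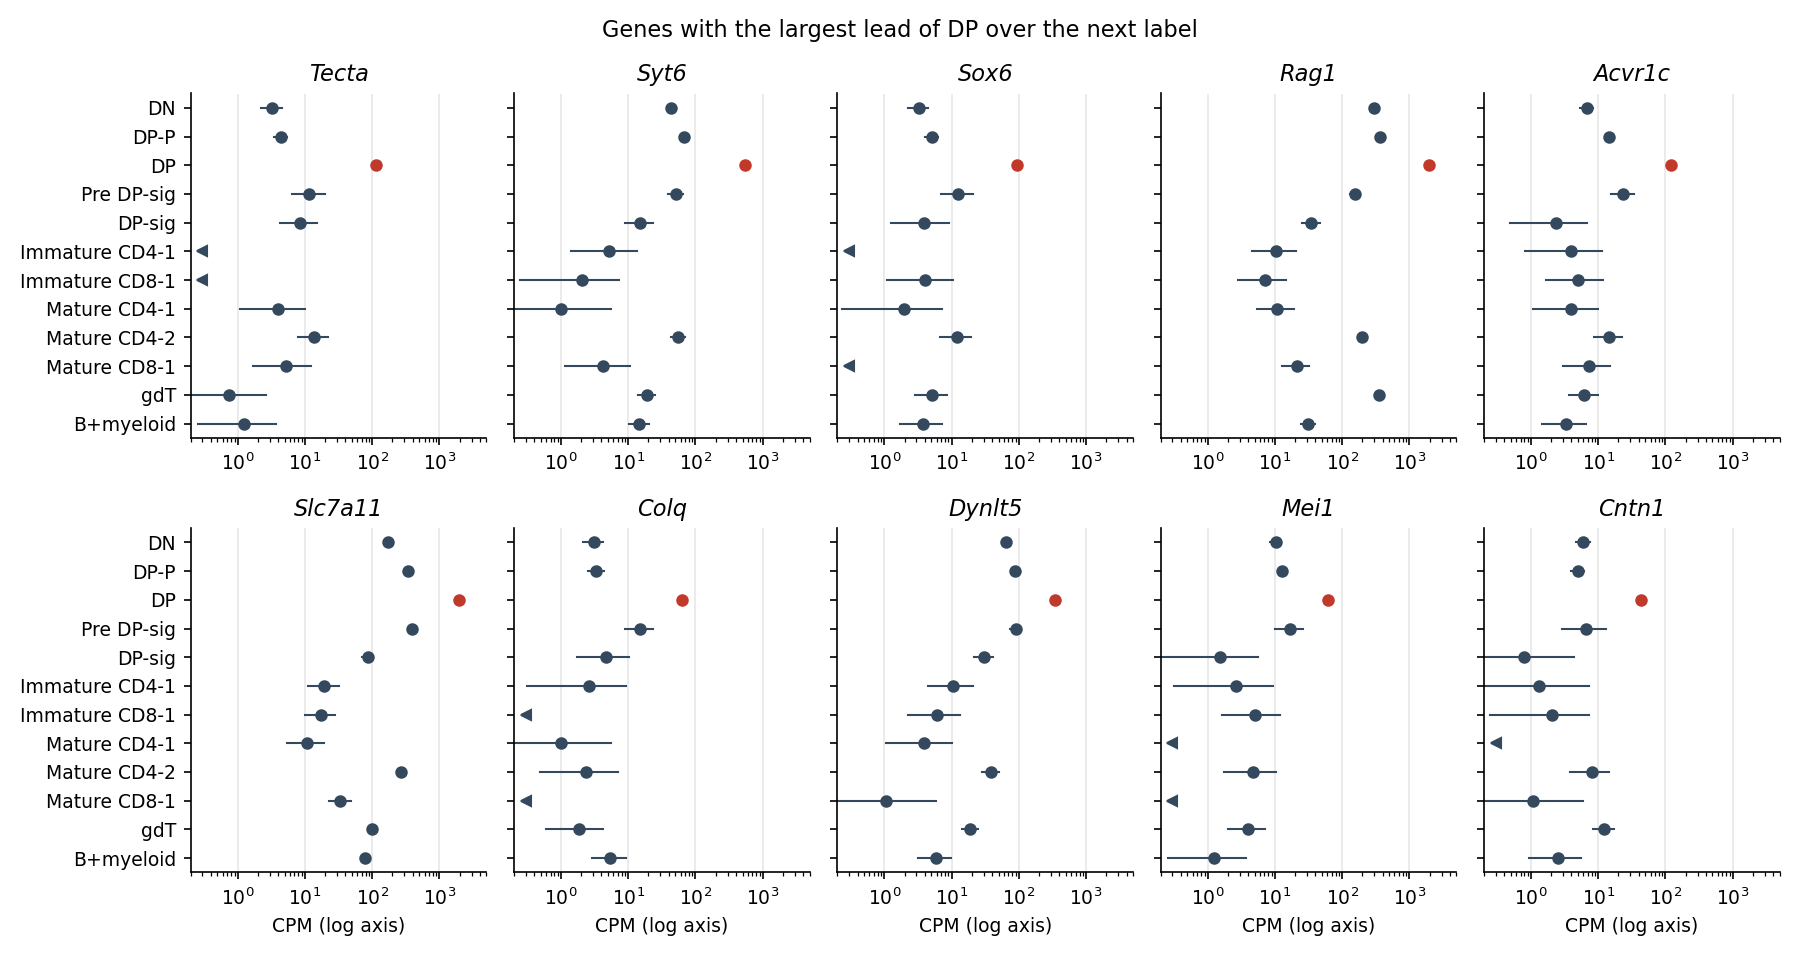
Level in CPM, on log axes, of the 10 genes with the widest margin of DP cells (red) over the next label, in 12 labels of the thymocyte library. Points are summed UMIs and lines are exact Poisson 95% intervals, with a left-pointing triangle at the edge for a label with no UMI. The DP point stands apart to the right in every panel, by 3.51-fold to 8.29-fold over the next of the 17 labels compared.

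The promoters of the 3 of these genes with the highest CPM in DP cells are shown, since these genes lead in CPM in the same cells. Of the 10 genes, 8 had a promoter sequence from RefSeq on the GRCr8 assembly, each running from 250 bases before to 50 bases after the annotated start. The windows are chr3:108383135-108383434 on the minus strand for Rag1, chr2:136668215-136668514 on the minus strand for Slc7a11 and chr2:193781226-193781525 on the plus strand for Syt6, and each is written along the gene's strand. Capitals mark matches on either strand to CAGCTG and CAGGTG, which are E-box sequences of the kind bound by E proteins such as the products of Tcf12 and Tcf3, and to AGGTCA, a half-site of nuclear receptors. CAGCTG reads the same on both strands, and no match shown overlaps another.
Rag1: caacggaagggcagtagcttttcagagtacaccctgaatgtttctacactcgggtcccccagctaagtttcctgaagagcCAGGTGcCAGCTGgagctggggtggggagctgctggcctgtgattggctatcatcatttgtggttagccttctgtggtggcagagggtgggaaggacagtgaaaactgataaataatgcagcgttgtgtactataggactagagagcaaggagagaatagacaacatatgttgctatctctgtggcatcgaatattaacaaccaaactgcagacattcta
Slc7a11: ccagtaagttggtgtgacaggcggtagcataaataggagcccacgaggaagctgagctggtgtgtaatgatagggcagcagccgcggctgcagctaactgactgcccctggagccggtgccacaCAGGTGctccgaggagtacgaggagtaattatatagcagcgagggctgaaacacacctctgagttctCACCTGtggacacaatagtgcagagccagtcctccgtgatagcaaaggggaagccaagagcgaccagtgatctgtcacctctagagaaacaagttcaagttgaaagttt
Syt6: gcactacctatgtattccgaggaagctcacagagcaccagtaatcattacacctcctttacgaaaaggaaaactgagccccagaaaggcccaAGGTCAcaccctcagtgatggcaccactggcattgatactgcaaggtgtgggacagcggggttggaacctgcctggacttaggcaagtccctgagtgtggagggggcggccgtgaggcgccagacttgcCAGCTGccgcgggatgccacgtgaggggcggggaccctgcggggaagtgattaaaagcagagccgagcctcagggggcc
Rag1 had 1 CAGCTG and 1 CAGGTG, Slc7a11 had 2 matches to CAGGTG, and Syt6 had 1 CAGCTG and 1 AGGTCA. Among all 33469 promoters of the table, 15.1% held CAGCTG, 18.8% held CAGGTG and 16.2% held AGGTCA, and each motif was held by 2 of the 8 promoters of the leading genes. These matches describe the letters of the windows and show no binding.

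Compared with DP-P cells, DP cells had a larger share of RNA for the recombinase, for the coreceptors and for part of the receptor's signalling chain, and a smaller share for most tested genes of the cell cycle and glycolysis. Of 6266 genes with a mean of at least 20 CPM over the pair of labels, called the genes tested below, 1201 (19.2%) were at least 2-fold higher in DP cells and 871 (13.9%) at least 2-fold lower. The median gene was 0.26 higher in DP cells on the log2 scale of CPM ratios. With that shift removed the counts were 755 higher and 1128 lower. Among cells whose cluster and projected label agree they were 939 higher and 718 lower. Counted as UMIs per cell, 16 genes (0.255%) were at least 2-fold higher in DP cells and 5778 (92.2%) at least 2-fold lower. The counts below are on the CPM scale unless stated, and are to be read against 19.2% and 13.9%.

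The recombination genes were the first group. Of 11 tested members, 5 were at least 2-fold higher in DP cells and 1 was lower, with a median log2 CPM ratio of 0.68 against 0.26 over all genes tested. Lig4, the ligase that closes the coding joints, was at 511 CPM in DP cells and 77.2 CPM in DP-P cells, a ratio of 6.62. Rag1 had a ratio of 5.32, which was 3.77 among cells whose cluster and projected label agree. Dclre1c, the Artemis nuclease that opens the hairpins, was at 651 CPM and 195 CPM, Rag2 at 162 CPM and 62.6 CPM, and Dntt at 865 CPM and 336 CPM. The general repair genes moved less, with Prkdc at 118 CPM and 96.5 CPM and Atm at 102 CPM and 91.7 CPM. The member with the lowest ratio was H2ax, a histone variant made in dividing cells and marked at breaks, at 33.2 CPM in DP cells and 440 CPM in DP-P cells. Counted per cell, 8 of the 11 were at least 2-fold lower in DP cells and none higher, read against 92.2% of all genes tested. A DP cell held 7.10 UMIs of Rag1 and a DP-P cell 7.40, a ratio of 0.959, while the values for Rag2 were 0.588 and 1.26 UMIs per cell, a ratio of 0.466. For Lig4 they were 1.86 and 1.56 UMIs per cell.

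The receptor and its proximal signalling chain had 7 of 17 tested members at least 2-fold higher in DP cells and none lower, with a median log2 CPM ratio of 0.93. Themis, an adaptor needed at positive selection, was at 1706 CPM in DP cells and 494 CPM in DP-P cells. Ptprc, which encodes CD45, was at 1407 CPM and 535 CPM, and Lck, the kinase bound to the coreceptors, at 777 CPM and 319 CPM. The chains of CD3 differed less, with Cd3d at 1466 CPM and 1200 CPM and Cd3g at 2943 CPM and 2026 CPM. Ptcra, the surrogate alpha chain of the pre-receptor, was at 207 CPM in DP cells and 265 CPM in DP-P cells. The lowest ratio of the list, 0.759, was that of Ptpn6, the phosphatase SHP-1. Among coreceptors and lineage factors, 2 of 10 were at least 2-fold higher, Cd4 at 4.93-fold and Cd8b at 4.65-fold, and none was lower. That count of higher genes is near the 19.2% of all genes tested. Cd8a had a ratio of 1.68 in the same comparison, so the pair of CD8 chains differed between the labels by unequal folds.

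Of 16 transcription factors of the T lineage, 7 were at least 2-fold higher in DP cells and 3 lower, with a median log2 CPM ratio of 0.94. The widest ratio was that of Bach2, a repressor of effector genes, at 178 CPM in DP cells and 47.0 CPM in DP-P cells. Tcf12, which encodes the E protein HEB, was at 3604 CPM and 1205 CPM, and Satb1, a chromatin organiser of thymocytes, at 3969 CPM and 1379 CPM. The 3 lower genes were Hes1 at 3.23 CPM against 61.7 CPM, Notch1 at 16.2 CPM against 49.3 CPM and Tcf3, which encodes E2A, at 18.3 CPM against 38.8 CPM. Hes1 is a direct target of the Notch receptor, so receptor and target were low together in DP cells. Of 10 tested genes known from mouse double-positive thymocytes, 8 were at least 2-fold higher and 1 lower. Ccr9, a chemokine receptor for CCL25, had the widest ratio of these at 7.23, with 499 CPM in DP cells and 69.0 CPM in DP-P cells, and Mns1 was the lower one at 78.1 CPM against 186 CPM. That list shares members with the lists above, Rag1, Rag2, Themis and Cd8b among them.

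Members of the BCL2 family, which set survival, were at least 2-fold higher in DP cells in 2 of 9 cases and lower in none. That count is near the 19.2% of all genes tested, and the median log2 CPM ratio was 0.04 against 0.26 over all genes tested. The 2 higher genes were pro-survival genes, Bcl2l1, which encodes BCL-XL, at 266 CPM against 103 CPM and Mcl1 at 228 CPM against 103 CPM. Bcl2 itself was at 60.8 CPM in DP cells and 59.0 CPM in DP-P cells. Of 10 tested genes of the response to selection 2 were higher, Cd5 and Icos with ratios of 2.74 and 2.39, and 1 was lower, the orphan receptor gene Nr4a3 at 6.19 CPM against 34.5 CPM. These counts are near the shares of all genes tested, 19.2% and 13.9%, and the median log2 CPM ratio of the list was -0.06. Among migration and adhesion genes 3 of 5 were higher and none lower, led by Ccr9 and by Plxnd1, a semaphorin receptor that guides thymocytes toward the medulla, at 79.6 CPM against 21.3 CPM. Among genes of the thymocyte surface 6 of 9 were higher, such as Thy1 at 1824 CPM against 838 CPM and Cd27 at 863 CPM against 358 CPM, and 1 was lower, Cd2 at 67.8 CPM against 209 CPM. Of the early precursor genes 3 were tested, with Hes1 and Notch1 lower. Among them, Il2ra, which encodes the CD25 chain of the IL-2 receptor and is known from double-negative cells, was at 67.5 CPM in DP cells and 8.77 CPM in DP-P cells. In the cells labelled DN in this library it was at 3.51 CPM (2.48 to 4.81).

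The cell cycle genes separated DP from DP-P cells by the widest folds. All 19 tested S phase genes and all 21 tested G2 and M phase genes were at least 2-fold lower in DP cells, with median log2 CPM ratios of -3.96 and -5.93. Top2a, the topoisomerase of dividing cells, was at 6.45 CPM in DP cells and 1798 CPM in DP-P cells. Mki67 was at 13.4 CPM and 1114 CPM, and Pcna, the clamp of the replication fork, at 30.0 CPM and 468 CPM. At its level in DP cells, Top2a reached the mean of 20 CPM only through DP-P cells, so its call as lower was fixed by that limit. The counts of 19 and 21 include such genes and are a description only. Under the rule for named genes, the 10 genes with the widest folds in this direction were Mxd3, H2ac10, Top2a, Pbk, Sgo2, Kif14, Esco2, Nusap1, E2f8 and Stil, lower in DP cells by 210-fold for Stil to 525-fold for Mxd3, which had 3 UMIs in all DP cells. The smallest fold of these lists was that of Smc4, a condensin subunit, at 320 CPM and 692 CPM.

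Cell by cell, after thinning to 1000 UMIs, 27.8% of the DP cells (26.6 to 29.1%) had at least 2 UMIs of the 43 listed cycle genes, against 100% of the DP-P cells and 23.1% of the Pre DP-sig cells (18.6 to 28.0%). Without thinning the shares were 77.0%, 100% and 74.8%. Most of the UMIs in DP cells were of Hmgb2, a chromatin protein at 370 CPM in DP cells, and Smc4. Leaving out these 2 genes, a choice made after seeing the data, gave 7.18% of the DP cells, 100% of the DP-P cells and 6.77% of the Pre DP-sig cells. A thinned DP cell then had 0.433 UMIs of the 41 genes on average and a thinned DP-P cell 12.3 UMIs. On these measures the DP cells stood with the Pre DP-sig cells and apart from the DP-P cells.

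Glycolysis genes were at least 2-fold lower in DP cells in 8 of 13 tested members and higher in none, with a median log2 CPM ratio of -1.34. Gapdh was at 262 CPM in DP cells and 1462 CPM in DP-P cells, and Eno1, the enolase, at 119 CPM and 407 CPM. Slc16a1, the lactate transporter MCT1, had the highest ratio of the list, at 157 CPM against 112 CPM. Of the glucocorticoid receptor and its targets 3 of 9 were higher and 4 lower. Per1, Sgk1 and Klf9, which the receptor induces in many cells, were the higher genes with ratios of 2.55, 2.13 and 2.23. The lower genes were Fkbp5, another target, at 129 CPM against 258 CPM and the chaperone genes Fkbp4, Hsp90aa1 and Hsp90ab1. The receptor gene Nr3c1 was at 513 CPM against 261 CPM, a ratio of 1.96. Immediate-early and heat shock genes, which respond to tissue handling, were higher in 2 of 10 cases and lower in 3, with Jun at 118 CPM against 52.0 CPM and Fos at 32.6 CPM against 87.9 CPM. Their part in the other differences was not tested. Of 6 class I presentation genes 1 was lower, the immunoproteasome subunit Psmb9 at 73.6 CPM against 248 CPM, and none was higher.

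Only 16 of the 6266 genes were at least 2-fold higher per cell in DP cells than in the 5.55-fold richer DP-P cells. They were the 10 genes with the widest CPM ratio, Tecta, Pde6c, Sox6, Colq, Nebl, Tdrd9, Ccl3, Dlgap2, Ccl4 and Carmil1, together with Cep112, Rd3l, Tcp11l2, Slco3a1, LOC120100901 and Gria3. The per-cell ratio is the CPM ratio divided by 5.55, so by construction these are the genes with the widest CPM ratios. Tecta had 0.409 UMIs per DP cell and 0.0884 per DP-P cell, a ratio of 4.62 per cell and 25.6 in CPM, which was 15.6 in cells thinned to 1000 UMIs. Nebl, which encodes the actin-binding protein nebulette, had 1.31 and 0.409 UMIs per cell, with a UMI in 54.9% of the DP cells and 21.5% of the DP-P cells. Gria3, a subunit of AMPA glutamate receptors, had 2.50 and 1.14 UMIs per cell. Pde6c encodes the phosphodiesterase of cones and Dlgap2 a scaffold protein of synapses. Ccl3 and Ccl4, which encode inflammatory chemokines, were at 102 CPM and 195 CPM in DP cells and at 5.96 CPM and 12.4 CPM in DP-P cells.

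Compared with Pre DP-sig cells, which hold nearly the same amount of RNA, DP cells differed in fewer genes. Of 6177 genes tested, 213 (3.45%) were at least 2-fold higher in DP cells and 164 (2.66%) at least 2-fold lower, and the median log2 CPM ratio was -0.016. Counted per cell, 203 (3.29%) were higher and 176 (2.85%) lower. This comparison uses the same DP cells as the one above, so the pair of comparisons is not independent. Both recombinase genes had a higher CPM in DP cells, and most tested genes of the response to selection had a lower one.

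Of 11 tested recombination genes, 5 were at least 2-fold higher in DP cells and none lower, with a median log2 CPM ratio of 0.40. Rag2 was at 162 CPM in DP cells and 7.50 CPM in Pre DP-sig cells, where it had 9 UMIs, a ratio of 21.6. Rag1 had a ratio of 12.7, which was 19.9 among cells with at most 5% mitochondrial UMIs. Dclre1c had a ratio of 2.70, Dntt of 2.40 and Lig4 of 2.32, and Xrcc5, a Ku subunit, had the lowest ratio of 0.548. The pair of recombinase genes therefore stood far above the joining genes in this comparison. Ptcra, at 207 CPM against 20 CPM, was the 1 of 17 receptor and signalling genes that was at least 2-fold higher in DP cells, while 3 were lower. The 3 were Cd28, the costimulatory receptor, at 35.0 CPM against 382 CPM, Ptpn6 at 37.4 CPM against 177 CPM and Fyn, a kinase of the Src family, at 168 CPM against 387 CPM. Zap70 was at 121 CPM against 122 CPM.

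The selection response had 10 of 13 tested members at least 2-fold lower in DP cells and none higher, with a median log2 CPM ratio of -1.79. Tox, a nuclear factor needed for the CD4 lineage, was at 215 CPM in DP cells and 2229 CPM in Pre DP-sig cells. Cd69, an early surface sign of receptor signalling, was at 5.55 CPM and 72.5 CPM, and Nab2, a corepressor of the EGR factors, at 5.60 CPM and 77.5 CPM. At their levels in DP cells, Cd69 and Nab2 reached the mean CPM needed to be tested only through Pre DP-sig cells. Their calls as lower were thus fixed by that limit. The count of 10 and the median of the list include such genes and are a description only. Id3, the inhibitor of E proteins, was at 25.2 CPM and 166 CPM. Cd5, whose level follows receptor signalling, was at 102 CPM and 273 CPM, and Bcl2 at 60.8 CPM and 206 CPM. The 3 members within 2-fold were Cd6, Gadd45b and Icos, with ratios of 0.843, 0.961 and 0.726. The Pre DP-sig cells thus had the larger share of RNA for most tested genes of this list.

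Of 10 BCL2 family genes, 2 were at least 2-fold higher in DP cells and 1 lower. Bcl2l1 was at 266 CPM against 50.0 CPM, Bmf, which opposes survival, at 32.1 CPM against 14.2 CPM, and Bcl2 was the lower gene. Of the coreceptor and lineage list, Cd4 and Cd8b were higher, with ratios of 3.43 and 2.44, and Tox and Runx3 lower. Runx3, a factor of the CD8 lineage, was at 24.1 CPM in DP cells and 62.5 CPM in Pre DP-sig cells. Of 16 T lineage factors, 5 were lower, with Tox2 at 3.28 CPM against 79.1 CPM the widest. The others lower were Id3, Bach2, Egr1 and Sox4, the last of which sat at the threshold with a ratio of 0.4997. Of 10 genes known from mouse double-positive thymocytes, 7 were higher and none lower. Arpp21, which encodes an RNA-binding protein, was at 1737 CPM against 645 CPM, and Glcci1, named for its induction by glucocorticoid, at 3647 CPM against 1553 CPM. Ccr9, at 499 CPM against 741 CPM, had the lowest ratio of that list. Few cycle genes reached the level needed: of 6 S phase and 3 G2 and M phase genes tested, 1 was at least 2-fold higher in DP cells, Mcm2, and 1 lower, Mcm3.

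Of the remaining lists, class I presentation had 2 of 5 tested genes at least 2-fold higher in DP cells. These were the peptide transporter genes Tap1 at 56.2 CPM against 27.5 CPM and Tap2 at 690 CPM against 314 CPM, while B2m, the light chain of class I, was at 375 CPM against 630 CPM. Of the glucocorticoid list, Sgk1 and Klf9 were higher, with ratios of 2.01 and 2.04, and none of the 9 was lower. In glycolysis 1 of 12 was lower, Pfkp, and among immediate-early and heat shock genes 1 of 11, Junb at 81.9 CPM against 349 CPM. Cd2, at 67.8 CPM against 716 CPM, and Cd28 were the 2 of 9 surface genes that were lower. Among 7 migration genes, Plxnd1 was higher at 79.6 CPM against 25.8 CPM and Itga4, an integrin chain, was lower at 205 CPM against 512 CPM. By the rule for named genes, those with the widest ratios toward DP cells were Rag2, Rag1, Syt6, Ptcra, Tecta, Parm1, Sox6, Cbfa2t3, Myo5b and RT1-T18, the last at 6.61-fold. Toward Pre DP-sig cells they were Vim at 15.5-fold, Cd28, Cd2, Tox, St8sia6, Raph1, Srgn, Id3, Adam19 and Ptpn6 at 4.72-fold. Vim encodes vimentin, an intermediate filament, and St8sia6 a sialyltransferase.

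**Figure D4:**
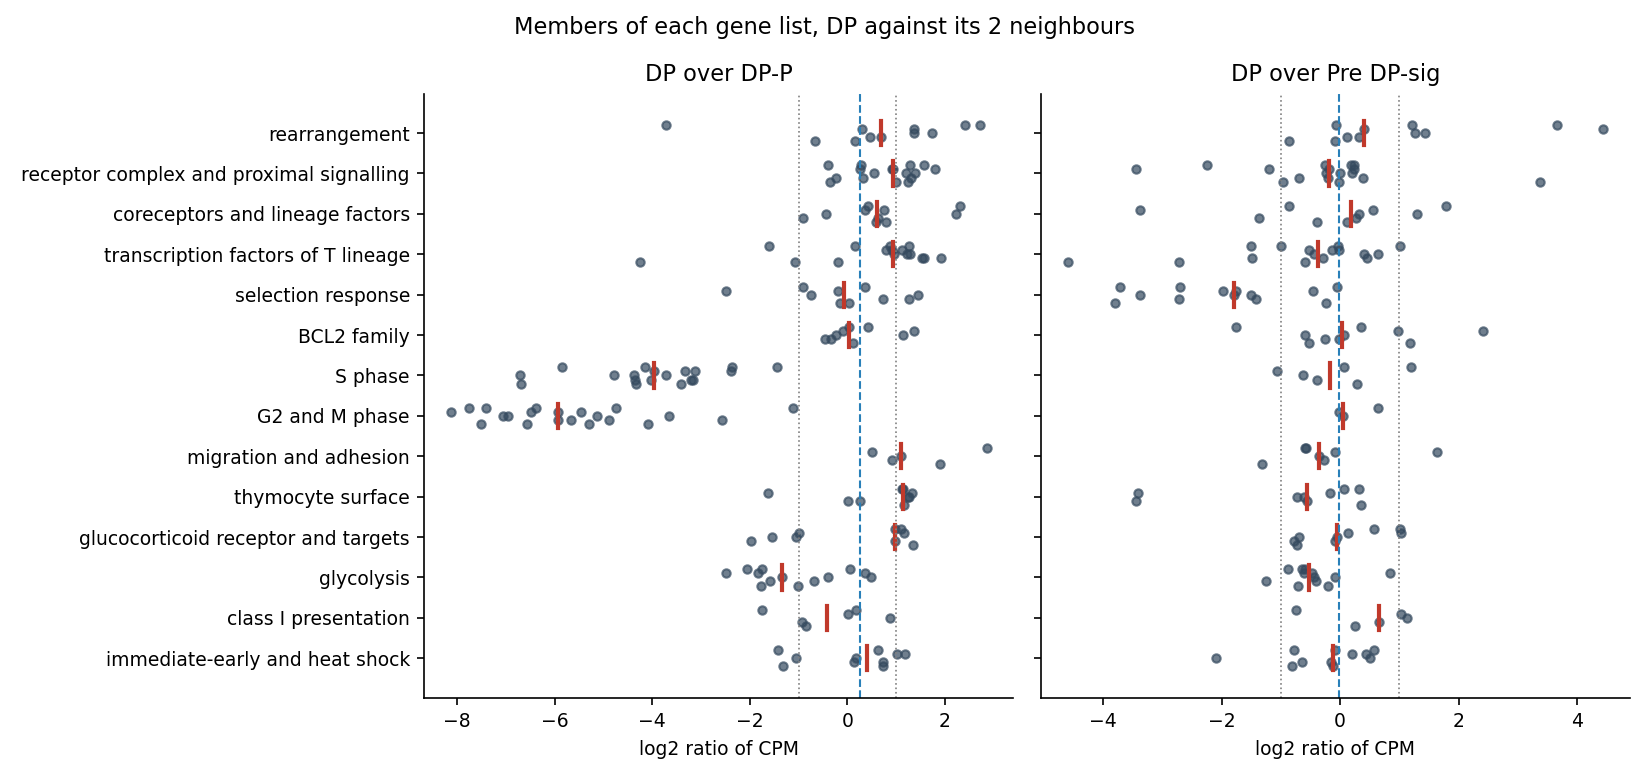
Log2 ratio of CPM for each tested member (points) of 14 gene lists, DP over DP-P on the left and DP over Pre DP-sig on the right. Red bars are list medians, the blue dashed line is the median of all tested genes (0.26 and -0.016), and dotted lines mark 2-fold. S phase and G2 and M phase genes lie at -3.96 and -5.93 (medians) on the left, and the selection response at -1.79 on the right.

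The DP cells were not uniform. The authors' clusters put 2916 of them (56.1%) in DP1, 2186 (42.0%) in DP2 and 78 in Early SP, with 22 in other clusters. Of 6132 genes compared between the DP1 and DP2 cells, 9 (0.147%) were at least 2-fold higher in DP1 and 0 (0.00%) in DP2, and at 1.5-fold the counts were 97 (1.58%) and 39 (0.636%). These clusters were made from the same genes, so the values are a description, and the genes named were chosen after their values were seen, by the limits used for the other comparisons. The widest were Crip1, at 139 CPM in DP1 and 47.3 CPM in DP2, Hmgn2, a nucleosome-binding protein, at 136 CPM and 58.5 CPM, and Cd2 at 71.5 CPM and 30.9 CPM. On the other side stood Bmf, at 25.0 CPM in DP1 and 47.0 CPM in DP2, Dlgap2 at 83.4 CPM and 143 CPM, and Sox6 at 80.4 CPM and 129 CPM. All 81 ribosomal protein genes compared had a CPM ratio of DP1 over DP2 above 1, against 2384 of the 6132 genes compared. Of the 81 genes, 12 had a ratio of at least 1.5. The 99 ribosomal protein genes took 17.6% of the UMIs of DP1 and 13.1% of those of DP2. The DP1 cells had a median of 3529 UMIs and the DP2 cells 2826. None of the 11 recombination genes passed 1.5-fold in either direction, to be read against 1.58% and 0.636% of all genes compared.

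The 78 DP cells of the Early SP cluster stood apart from the rest. Tox was at 1784 CPM (1673 to 1900) in them, Cd28 at 428 CPM (375 to 487) and Rag1 at 935 CPM (856 to 1020). They were 1.499% of the DP cells and gave 23.9% of their Tox UMIs, 35.2% of their Cd28 UMIs and 50.5% of their Cd69 UMIs. Without them, Tox was at 168 CPM (162 to 174) in DP cells, which is 13.2-fold below the Pre DP-sig cells, and Cd28 at 23.4 CPM, 16.4-fold below. Their projected label and their cluster name thus point to different stages, and their levels of these genes lay between those of the other DP cells and the Pre DP-sig cells or above both. The 78 cells had a median of 6458.5 UMIs and 2707 genes, against 3205.5 UMIs and 1601 genes in all DP cells. Whether any of their barcodes held several cells was not tested.

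Numbered clusters, also deposited by the authors, group the same DP cells a second way. Those numbered 1 and 9 held 2088 and 98 DP cells, where DP2 held 2186. Those numbered 0 and 6 held 2715 and 202, where DP1 held 2916. The 98 DP cells of the cluster numbered 9 had a median of 1336 UMIs and 680 genes. Ribosomal protein genes took 0.952% of their UMIs, against 16.1% in all DP cells, and the 15 mitochondrial genes 16.0%. Rag1 was at 761 CPM in them, Cd4 at 1169 CPM and Cd8a at 445 CPM. Leaving these cells out of every label, a choice also made after seeing the data, gave 1181 genes higher and 868 lower against DP-P, and 212 higher and 167 lower against Pre DP-sig. The cluster numbered 6 held 202 DP cells with a median of 5662.5 UMIs, in which Mki67 was at 74.2 CPM (59.8 to 91.0), against 13.4 CPM in all DP cells. Ribosomal protein genes took 23.6% of the UMIs of these 202 cells. The part of the clusters numbered 6 and 9 in the differences between DP1 and DP2 was not tested.

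When the DP cells were ordered by their UMIs and cut into 4 groups of near equal number, Rag1 went down as a share of RNA from 2493 CPM (2435 to 2552) in the shallowest group, of 520 to 2582 UMIs, through 2356 and 2010 CPM to 1520 CPM (1493 to 1548) in the deepest, of 4150 to 30476 UMIs. Per cell it went the other way, from 5.36 through 6.80 and 7.28 to 8.95 UMIs. Cd8a was nearly level at 1520, 1493, 1504 and 1487 CPM. Tox went up from 104 CPM (92.2 to 116) through 155 and 184 CPM to 304 CPM (291 to 316), and Cd28 from 20.04 through 20.3 and 27.4 to 52.4 CPM. Of the 78 Early SP cells, 56 were in the deepest group and 4 in the shallowest, and of the 98 cells of the cluster numbered 9, 73 were in the shallowest. The part of these cells in the trends was not tested. The median percent of UMIs from the pair of mitochondrial ribosomal RNAs, given by the authors, was 5.97, 5.41, 5.23 and 4.34 in the 4 groups.

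Spread from cell to cell was measured as the Fano factor, the variance over the mean of UMIs, in 5164 DP cells thinned to 1000 UMIs. Over 3554 genes with a mean of at least 0.05 UMIs the median was 1.06 and the 95th percentile 1.30, where 1 is the value of counting alone. Among the 10 highest were 6 mitochondrial genes, mt-Rnr1 at 6.51, mt-Rnr2 at 4.46, COX2, ATP6, COX3 and COX1. Others of the 10 were Ccl4 at 2.79, Dpp10, a subunit of potassium channels, at 2.39, and Lingo2, a neuronal membrane protein, at 2.24. Rag1 was at 1.58, Cd4 at 1.21, Cd8a at 1.202 and Dntt at 1.18. Of these genes, Dpp10 was at 97.0 CPM (92.6 to 102) in DP cells and 9.35 and 109 CPM in DP-P and Pre DP-sig cells, and before thinning 8.69% of the DP cells had a UMI of it. Lingo2 was at 117 CPM in DP cells, 120 CPM in DP-P cells and 50.8 CPM in Pre DP-sig cells. Ccl4 had a UMI in 27.7% of the DP cells and 44.3% of the Pre DP-sig cells, at 195 CPM and 507 CPM, and it was at 964 CPM in the cells labelled DP-sig and 1770 CPM in AgoSel1. Rag1 thus lay above the 95th percentile, and Cd4, Cd8a and Dntt lay between the median and that percentile. The percentile covers genes of every mean from 0.05 UMIs up, while Rag1 had a mean of 2.11 UMIs. Other genes of high mean also lay above it: Tcf12 at 1.86, Satb1 at 1.84, Glcci1 at 1.593 and Themis at 1.592, with means from 1.73 to 3.90 UMIs. Cd8b, with a mean of 1.45 UMIs, was at 1.15 and Rag2, with a mean of 0.165, at 1.10.

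In the spatial section the label could be placed. The authors assigned labels to the bins of the section by RCTD, a method that decomposes the RNA of each spot into reference cell types, with the rat cell libraries among its references per the design text, so this readout is not independent of the cells described above. A bin of 20 units can hold parts of several cells, and the regions are those the authors deposited. Of 592087 labelled bins, 138034 (23.3%) had DP in first place. The share was 26.0% (25.8 to 26.2%) in the capsular region and 25.7% (25.5 to 25.8%) in the cortex, against 0.727% (0.646 to 0.815%) in the region named mECA and 3.07% (2.83 to 3.32%) in mEFA. Of all bins with DP as first label, 76.1% lay in the cortex and 23.2% in the capsular region. DP-P was the first label of 2.63% of the capsular bins, 2.19% of the cortical bins, 0.0996% of the mECA bins and 0.253% of the mEFA bins. Pre DP-sig had 8.83%, 10.0%, 1.82% and 3.54% in the same order, so it took more bins than DP in mECA and fewer in the capsular region and the cortex, while in mEFA its interval of 3.29 to 3.81% overlapped that of DP. Segmented cell bins gave DP in 22.7%, 21.2%, 1.44% and 2.99% of the bins. The median bin with DP as first label had 271 UMIs in the capsular region, 265 UMIs in cortical bins, 328.5 in mECA bins and 343 in mEFA bins. With 1 section, no spread between animals can be given.

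**Figure D5:**
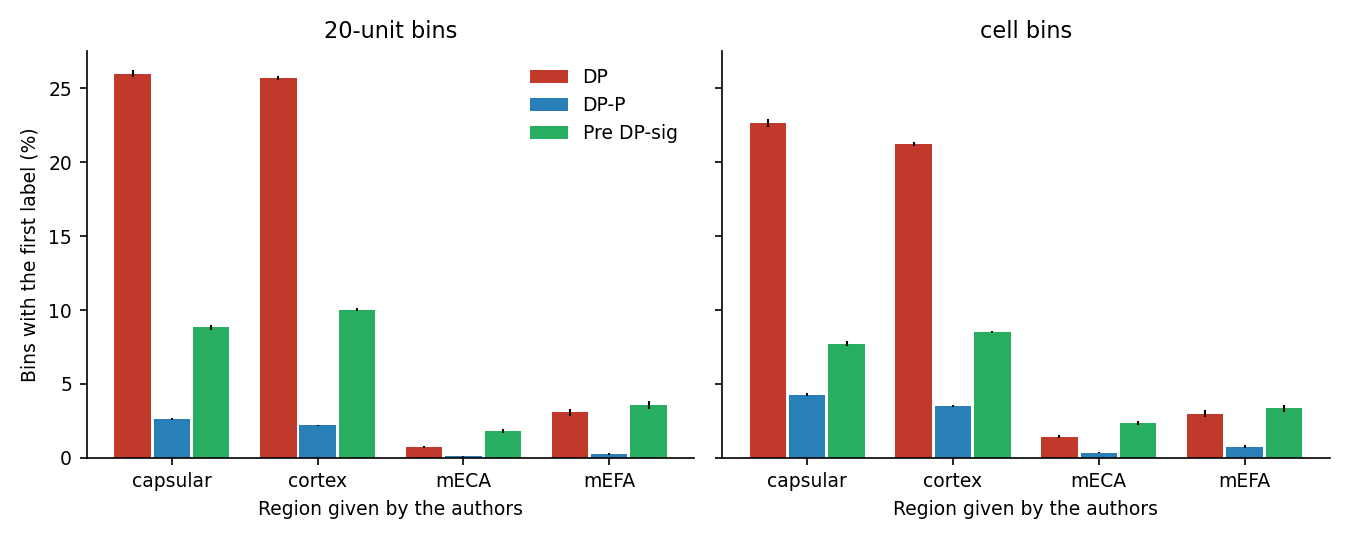
Percent of labelled bins with DP, DP-P or Pre DP-sig as first label in the 4 regions given by the authors, for 20-unit bins (left) and segmented cell bins (right). Error bars are exact binomial 95% intervals over bins of 1 section. DP reaches 26.0% and 25.7% in the capsular region and the cortex and stays under 4% in the other regions, mECA and mEFA, for both kinds of bin.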

How the data were processed

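The thymocyte library was described from its deposited whole-number counts, UMIs per gene and barcode over 34034 features, made with Cell Ranger 8.0.0 and annotated on build mRatBN7.2, with Seurat 5.3.0 also named, per the submitters' processing notes. The percent of mitochondrial UMIs is a value deposited by the authors. It equals the 2 mitochondrial ribosomal RNAs. Labels and clusters are the authors' own. How doublets were handled upstream is not given in the sources used here, and no doublet caller was run. The 28 barcodes without annotation were left out.

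UMIs were summed per label with Python 3.11.15, NumPy 2.4.6, SciPy 1.17.1 and pandas 2.3.3, and given as CPM, the count per 1000000 UMIs, with exact Poisson intervals. A ratio used the level of 3 UMIs as a floor. Genes with a mean of at least 20 CPM were tested for a 2-fold ratio. Thinning to 1000 UMIs used 1 fixed seed. The script was tested on simulated data.

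Genes were named by rule: the 10 with the widest ratio in each direction, or over the next label, limited to genes that reach 100 UMIs and 10% of cells in the higher label, genes known only by an identifier left out, the 10 highest Fano factors, and in each list its markers, extremes and members of known role. The members, rule and lists were chosen with earlier results of these data known. Counts of bins per region come from the authors' deposited labels of the section. Promoters are from RefSeq on GRCr8, a different build from that of the counts, and no coordinate was carried between them. Alternatives changed the scale, filters, threshold and cells. Some genes that meet the rule are not reported here.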

Additional observations from a re-analysis of the deposited data

How the results depend on the processing

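No paired analysis was possible because all labels compared come from 1 library, and the precision of every value is that of counting within 1 library. Of 636 values of named genes recomputed, 629 stayed on their side of 2-fold, 4 crossed it and 3 turned, all 7 of them against DP-P as UMIs per cell. Those that turned had ratios of 0.727 for Dynlt5, 0.866 for Mei1 and 0.959 for Rag1, which is the 5.55-fold larger RNA content of DP-P cells by construction. Beyond UMIs per cell, 29 of the named-gene values moved by over 1.5 times without crossing 2-fold. Thinned cells put DP over DP-P at 5.12 for Acvr1c, 9.41 for Carmil1, 35.1 for Pde6c, 15.6 for Tecta, 0.00985 for E2f8 and for Pbk, 0.00285 for Esco2, 0.00128 for H2ac10, 0.00608 for Mxd3 and 0.00220 for Nusap1, and DP over Pre DP-sig at 4.47 for Cbfa2t3, 7.43 for Colq and 4.13 for Myo5b. Cells whose cluster and label agree put DP over DP-P at 4.93 for Acvr1c, 9.69 for Carmil1, 3.57 for Slc7a11, 5.28 for Syt6, 0.00292 for E2f8, 0.00299 for Esco2 and 0.00135 for Kif14, and DP over Pre DP-sig at 0.0606 for Cd28 and 0.0414 for Vim. Cells with at most 5% mitochondrial UMIs put DP over Pre DP-sig at 11.02 for Acvr1c, 5.92 for Mei1 and 19.9 for Rag1, and DP over DP-P at 0.00762 for Kif14 and 0.00363 for Mxd3, and the mean over cells put the latter ratio at 0.00279 for E2f8 and 0.00254 for Kif14. Of 79 other values, 36 stayed and 43 moved, and for these the cause was not tested unless the setting is itself a stricter or looser limit. Against DP-P, genes higher and lower in DP cells numbered 16 and 5778 as UMIs per cell, 381 and 518 at a 3-fold threshold, 753 and 521 at a mean of at least 50 CPM, and 4005 and 2390 with no filter on level beyond 3 UMIs. Scaling to the median gene, added after seeing the data, left 755 higher. Against Pre DP-sig they numbered 77 and 56 at 3-fold, 126 and 81 at 50 CPM, and 580 and 925 without the filter, and 255 were lower with cells thinned to 1000 UMIs. Thinned cells gave Rag1, Cd4, Cd8a and Dntt at 2111, 1411, 1522 and 884 CPM. The mean over cells gave 2097 for Rag1, 1411 for Cd4 and 888 for Dntt, and totals without mitochondrial, ribosomal protein and haemoglobin genes gave 2584, 1788, 1983 and 1145. The share of DP cells was 45.6% among cells with at most 5% mitochondrial UMIs and 62.5% by clusters DP1 and DP2. The share with cycle genes was 10.1% at 3 UMIs, 77.0% without thinning and 7.18% without Hmgb2 and Smc4, the last also added after seeing the data. Bins with DP as first label made up 18.6%, 17.4%, 0.382% and 1.87% of capsular, cortical, mECA and mEFA bins at or above the median UMIs, 27.8%, 26.5%, 2.40% and 3.95% counting DP in any place, and 22.7%, 21.2% and 1.44% of segmented bins of the first 3 regions.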

Other observations

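Some cells of the DP clusters fall outside the label. There were 12 cells of the cluster DP2 with no projected label, with a median of 1309 UMIs and 249 genes, a median of 39.7% mitochondrial UMIs and 1 UMI of Rag1 in all. The 28 barcodes of the library without annotation had a median of 764.5 UMIs and 76 genes, and 1 UMI of Rag1.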
